A study of Homo sapiens with 6 samples.

Results

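Small nucleolar RNAs (snoRNAs) and their Cajal body relatives (scaRNAs) were examined in the RNA of human embryonic kidney HEK293T cells that lack the m6A demethylases ALKBH5 and FTO. Considered were the genes that GENCODE release 29 types as snoRNA or scaRNA and whose read counts summed to 10 or more over all 6 libraries. Members were thus chosen by summed counts. This rule kept 6 of 992 such genes, in a table of 58721 genes: SNORD3A, SNORD3B-1, SNORD3B-2, SNORD13, SNORA11F and the gene listed as RF00406. All 6 are typed snoRNA, so no scaRNA was a member. The sum over both groups chose the members, and the difference between the groups did not.

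In 3 libraries the cells were HEK293T in which both ALKBH5 and FTO had been knocked out with CRISPR/Cas9, and these were set against 3 libraries of wild type HEK293T, with independent biological replicates per the labels. Both groups gave RNA from cleared detergent lysates made with cycloheximide, which the labels call cytoplasmic. Ribosomal RNA was depleted, no poly(A) selection was made, the library kit keeps strand, and GFP and FLuc mRNA were added as spike-ins. The number of knockout clones is not given in the sources used here. Nor is it said there whether the wild type cells, whose columns carry the unexplained name HEK293G6, were the parental line, so a difference between lines and the knockout cannot be told apart. Total gene counts per library ran between 5634648 and 7551825. Transcripts of each targeted gene fell: FTO averaged 55.8 ± 4.22 CPM (counts per 1000000 counts) in double knockout and 105 ± 7.94 CPM in wild type, and ALKBH5 averaged 185 ± 0.687 CPM in double knockout and 244 ± 9.98 CPM in wild type (SD, n = 3 each). Of 6 genes known from this line (PAX2, VIM, KRT8, KRT18, NEFM and NEFL), all 6 were expressed past the filter on low counts, and all 6 were also higher in the double knockout (log2 fold changes 0.21 for NEFL to 0.99 for PAX2, median 0.57, edgeR). Of 4 markers of other cell types, PTPRC, ALB and PECAM1 (blood, liver and endothelium) did not pass the filter. The fourth, the fibroblast marker COL1A1, passed it with 9.24 ± 1.52 CPM in double knockout and 11.8 ± 1.44 CPM in wild type, and fell by 0.35 on the log2 scale (edgeR adjusted p = 0.0373). In bulk RNA, fewer cells that make a transcript and less of it per cell cannot be told apart.

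snoRNAs fall into a pair of structural families. Box C/D snoRNAs carry a C box and a D box, assemble with the methyltransferase fibrillarin, and mostly guide 2′-O-methylation of rRNA. Box H/ACA snoRNAs fold into hairpins, end shortly after an ACA, assemble with the pseudouridine synthase dyskerin and guide pseudouridylation. Most human snoRNAs are cut out of the introns of host genes. A few are transcribed from promoters of their own, among them U3 (the SNORD3 genes), which base-pairs with the pre-rRNA and is needed for the cleavages that release 18S rRNA, and U13 (SNORD13), which is needed for acetylation of 18S rRNA.

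The sequences below, from the GENCODE 29 transcripts on GRCh38, show how little separates the U3 copies and where the letters of the family boxes lie. For the 3 U3 copies, capitals mark the C box (TGATGA), the D box (CTGA) and the positions at which the copies differ. For both box H/ACA RNAs, capitals mark the ACA that ends 3 bases before the 3′ end. SNORD3A lies on chromosome 17 at 19188016 to 19188233 (plus strand), SNORD3B-1 at 19061912 to 19062129 (plus strand) and SNORD3C at 19190028 to 19190245 (minus strand). SNORA11F lies on chromosome 10 at 73126080 to 73126207 (minus strand). RF00406 lies on chromosome 16 at 30419625 to 30419759 (minus strand), and the name table gives it the symbol SNORA80C.
SNORD3A: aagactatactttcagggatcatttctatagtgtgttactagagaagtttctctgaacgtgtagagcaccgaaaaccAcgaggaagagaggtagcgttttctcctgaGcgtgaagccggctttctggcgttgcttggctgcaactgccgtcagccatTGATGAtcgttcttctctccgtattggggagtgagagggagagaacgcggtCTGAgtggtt
SNORD3B-1: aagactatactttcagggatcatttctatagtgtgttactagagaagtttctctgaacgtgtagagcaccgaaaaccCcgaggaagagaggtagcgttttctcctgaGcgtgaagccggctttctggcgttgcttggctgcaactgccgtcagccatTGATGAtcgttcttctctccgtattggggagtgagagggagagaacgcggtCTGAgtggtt
SNORD3C: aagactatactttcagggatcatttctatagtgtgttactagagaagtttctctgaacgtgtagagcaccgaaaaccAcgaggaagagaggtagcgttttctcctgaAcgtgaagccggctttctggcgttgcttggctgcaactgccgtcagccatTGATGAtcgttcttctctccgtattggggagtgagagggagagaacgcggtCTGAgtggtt
SNORA11F: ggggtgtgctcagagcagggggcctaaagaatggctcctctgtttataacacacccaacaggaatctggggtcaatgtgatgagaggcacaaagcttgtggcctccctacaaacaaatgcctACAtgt
SNORA80C: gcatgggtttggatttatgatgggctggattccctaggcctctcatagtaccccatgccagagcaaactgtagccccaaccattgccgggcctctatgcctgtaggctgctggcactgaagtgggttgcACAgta

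Counted from the 5′ end, the 218-base U3 sequence of SNORD3A differed from that of SNORD3B-1 by A78C, and from that of SNORD3C by G108A. SNORD3B-2 had the same 218 bases as SNORD3B-1. TGATGA was found on the transcript strand of all 4 box C/D members and in 77.3% of the 278 genes with a SNORD symbol. It was also found in SNORA11F, where it is left in lower case, and in 5 of the 147 genes with a SNORA symbol. CTGA within the last 20 bases was found in all 4 as well, and in 96.4% of those 278 genes. It was also found in RF00406, again in lower case, and in 8.84% of the SNORA genes. An ACA ending 3 bases before the 3′ end was found in SNORA11F and in RF00406, in 76.2% of the SNORA genes and in 1.44% of the SNORD genes. A match is a description of these letters only.

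Only snoRNA and scaRNA genes that lie outside every other gene on their strand had counts, and this decided which could be members. Of the 618 snoRNA and scaRNA genes whose span overlaps another annotated gene on the same strand, 0 had a count in any library. Of the 374 that overlap none, 34 had a count. The 586 snoRNA and scaRNA genes that lie wholly within a host gene, in 327 hosts, were all listed at 0, although 373 of them lie in a host that passed the filter, and those tested hosts had a median of 96.0 CPM. All 8 snoRNAs inside TAF1D, all 7 inside SNHG1 and all 6 inside GNL3 were listed at 0. So were all 48 SNORD115 genes, all 30 SNORD116 genes and all 24 genes with a SCARNA symbol.

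The same held for other genes in that position. Of 609 snoRNA and scaRNA genes whose span is wholly covered by other genes on their strand, and of 626 such protein-coding genes and 488 such lincRNA genes, 0 had a count. By contrast 5193 of 5782 protein-coding genes covered in part had one. Among named small RNAs, U8 (SNORD118), SNORD14A, SNORD17, SNORD22, the U17 genes SNORA73A and SNORA73B, RN7SK and the RNase P RNA RPPH1 all lie wholly inside another annotated gene on their strand and were all listed at 0. A gene on the opposite strand made no such difference. Of snoRNA and scaRNA genes, 15 of 154 with only an opposite-strand partner had a count, as did 19 of 220 with no partner on either strand. The sources used here do not say how reads that fall in more than 1 gene were assigned. A listed 0 of a nested snoRNA is therefore not read here as a level.

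**Figure D1:**
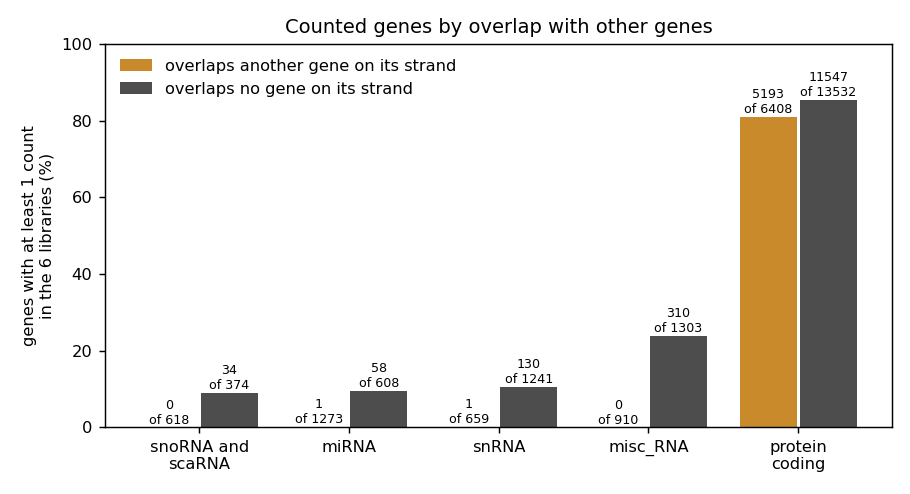
Share of genes with at least 1 count in the 6 libraries (vertical axis, percent), for 5 gene types, split by whether the gene's span overlaps another annotated gene on its strand (left bar) or not (right bar), with the numbers of genes above the bars. None of 618 overlapping snoRNA and scaRNA genes had a count, against 34 of 374 that overlap no gene, whereas protein-coding genes had counts in both classes (5193 of 6408 and 11547 of 13532).

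Of the 34 genes with a count, 32 are typed snoRNA and 2 are typed scaRNA. Among all 34, 21 had a total of 1 and 5 a total of 2, and 28 stayed below the minimum of 10. Just inside the minimum was RF00406 with a total of 11. Just outside were an RF00012 gene, a U3 relative on chromosome 17, with a total of 7 and an RF00340 gene with a total of 3. Where a library has 0 counts, up to 3 counts remain possible, equal to 0.406 to 0.544 CPM. That limit covers counting error only, and applies to genes whose reads could be assigned.

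SNORD3A, the U3 gene with the most counts, was lower in the double knockout. It had 363, 487 and 351 counts in double knockout replicates 1 to 3, against 695, 625 and 596 counts in wild type replicates 1 to 3. In CPM on TMM-scaled library sizes these were 60.1, 74.5 and 55.9 in double knockout, against 95.4, 84.5 and 108 in wild type. Every double knockout library was below every wild type library. The means were 63.5 ± 9.77 CPM in double knockout and 95.9 ± 11.8 CPM in wild type (SD, n = 3 each), and SNORD3A fell by 0.58 on the log2 scale (SE 0.07, 0.67-fold, edgeR quasi-likelihood adjusted p = 1.35e-11). That SE is smaller than the one from the spread of its own libraries, which was 0.16 around a log2 difference of -0.60 (exact permutation test, two-sided, p = 0.1, and no smaller p is possible with 3 against 3 libraries). Without double knockout replicate 1 the fall was 0.54 and its adjusted p was 0.0825, the one leave-out fit of 6 in which the call was lost. With all libraries, the adjusted p of SNORD3A varied widely between fits whose log2 fold changes were -0.59 to -0.57. It was 2.61e-18 in edgeR without the low-count filter and 1.34e-10 in limma voom. It was 8.23e-04 in DESeq2, 0.00476 in edgeR with the size factors of DESeq2, and 0.0394 in edgeR with a replicate block.

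SNORD3B-1 and SNORD3B-2, whose U3 sequence is identical, did not pass the threshold. SNORD3B-2 (chromosome 17, 19063346 to 19064136, minus strand) had 50, 86 and 63 counts in double knockout, against 82, 86 and 61 in wild type. SNORD3B-1 (19061912 to 19062669, plus strand) had 49, 45 and 49 counts in double knockout, against 60, 64 and 39 in wild type. The groups overlapped for both genes. SNORD3B-2 averaged 10.5 ± 2.47 CPM in double knockout and 11.3 ± 0.291 CPM in wild type, a log2 fold change of -0.10 with a 95% interval of -0.39 to 0.18 (edgeR adjusted p = 0.567). SNORD3B-1 averaged 7.60 ± 0.640 CPM in double knockout and 7.98 ± 0.821 CPM in wild type, a log2 fold change of -0.09 with a 95% interval of -0.42 to 0.25 (edgeR adjusted p = 0.687). The SE from the spread between libraries was 0.20 for SNORD3B-2, against 0.15 in edgeR, and 0.11 for SNORD3B-1, against 0.17 in edgeR.

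The ratio of SNORD3A to both SNORD3B genes does not depend on how libraries are scaled. It was 3.67, 3.72 and 3.13 in double knockout, against 4.89, 4.17 and 5.96 in wild type. No double knockout library reached the lowest wild type library. This ratio was not among the planned ones, and it sets the gene that fell over genes that did not pass. It uses the same counts, so it is no separate evidence that SNORD3A fell. The log2 difference of the ratio, double knockout minus wild type, was -0.50 (two-sided exact permutation p = 0.1, the smallest possible), and between -0.63 and -0.37 when single libraries were left out. Between the SNORD3B genes, SNORD3B-1 over SNORD3B-2 gave 0.760 ± 0.229 in double knockout and 0.705 ± 0.0573 in wild type (exact permutation p = 0.7).

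Counts of single U3 copies are uncertain, because near-identical copies share most of their sequence. Of the 625 windows of 75 bases along the annotated SNORD3A gene (699 bases), 97 were found in no other annotated snoRNA gene. For SNORD3B-1 this held for 292 of 684 windows and for SNORD3B-2 for 264 of 717, with 0 of the 144 windows inside the U3 sequence of either. SNORD3C matched the first 581 bases of SNORD3A with 1 difference and yet had a total of 2 counts over all libraries, against 3117 for SNORD3A. The sources used here say neither how reads with several alignments were assigned nor how long the reads were. SNORD3A also lies 978 kb beyond ALKBH5, one of the targeted genes, on the same chromosome arm. The median log2 fold change of the 22 tested genes within 1 Mb of SNORD3A was -0.004, a median so close to 0 that subtracting it leaves SNORD3A at -0.57. An effect of position on SNORD3A was not tested.

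SNORD13, the U13 gene (chromosome 8, 33513475 to 33513578, plus strand), had the largest log2 fold change of the 5 tested snoRNAs, on few counts. It had 15, 23 and 25 counts in double knockout, against 39, 31 and 52 in wild type. The libraries of the groups did not overlap in CPM, at 2.49, 3.52 and 3.98 in double knockout and 5.35, 4.19 and 9.42 in wild type. The means were 3.33 ± 0.767 CPM in double knockout and 6.32 ± 2.75 CPM in wild type, and SNORD13 fell by 0.85 on the log2 scale (SE 0.23, 0.55-fold, edgeR adjusted p = 4.95e-04). That SE is also smaller than the one from the spread of its own libraries. The latter was 0.40 around a log2 difference of -0.87 (exact permutation test, two-sided, p = 0.1). Wild type replicate 3 was the highest library. Without it SNORD13 had a log2 fold change of -0.51 and an adjusted p of 0.0892. Its 104 bases overlap an exon of TTI2 on the opposite strand. SNORD13 had counts all the same, whereas 0 of the 609 snoRNA and scaRNA genes wholly covered on their own strand had any. Strand use in counting is not given in the sources used here, and whether reads of TTI2 were counted for SNORD13 was not tested. The 5 tested genes within 1 Mb had a median log2 fold change of -0.11.

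SNORA11F was the only box H/ACA member with enough counts to test. It had 32, 49 and 29 counts in double knockout, against 49, 58 and 51 in wild type. In CPM this was 5.30, 7.50 and 4.62 in double knockout and 6.72, 7.84 and 9.24 in wild type, so the groups overlapped through double knockout replicate 2. The means were 5.81 ± 1.51 CPM in double knockout and 7.93 ± 1.26 CPM in wild type, and SNORA11F fell by 0.42 on the log2 scale (SE 0.19, edgeR adjusted p = 0.0409). The spread of its own libraries gave an SE of 0.25 around a log2 difference of -0.47 (exact permutation test, two-sided, p = 0.2). The call was not stable. It was kept in 6 of 14 alternatives. DESeq2 and limma voom each gave a log2 fold change of -0.43, with adjusted p = 0.171 in DESeq2 and 0.0517 in voom. The call was lost without double knockout replicate 1 (-0.36, adjusted p = 0.135) or 3 (-0.28, 0.248) and without wild type replicate 2 (-0.42, 0.0817) or 3 (-0.32, 0.177), and without double knockout replicate 2 the fold change was -0.66 (adjusted p = 0.00755). SNORA11F lies within the span of NUDT13 on the opposite strand, and it overlaps no exon of that gene.

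RF00406 had 1, 2 and 1 counts in double knockout, against 4, 2 and 1 in wild type. It did not pass the filter on low counts and was not tested. Its mean of 0.210 ± 0.0830 CPM in double knockout and 0.333 ± 0.192 CPM in wild type lay below the level that 3 counts in a library give.

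**Figure D2:**
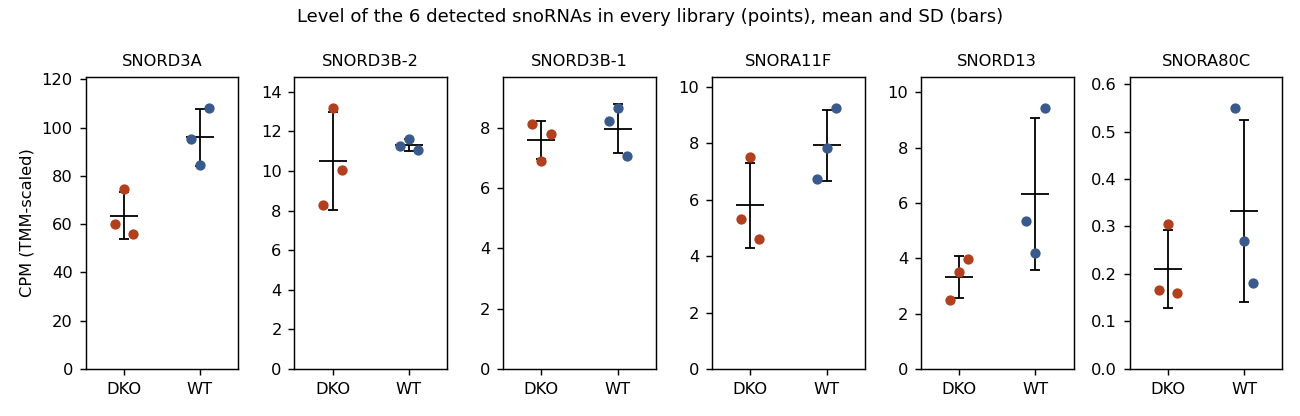
Level of each of the 6 detected snoRNAs in every library, in CPM on TMM-scaled library sizes (vertical axes start at 0 and differ between panels), with double knockout (DKO) left and wild type (WT) right. Points are libraries, and horizontal and vertical bars are the mean and SD of 3. SNORD3A and SNORD13 have no overlap between groups (63.5 ± 9.77 and 95.9 ± 11.8 CPM for SNORD3A), whereas the SNORD3B genes, SNORA11F and SNORA80C (RF00406) overlap.

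Of the 5 tested snoRNAs, 3 fell, 0 rose and 2 did not pass the threshold in edgeR. None rose at an unadjusted p under 0.05 either, nor in DESeq2 or limma voom. Across all 14180 tested genes 57.1% changed, 28.8% lower and 28.3% higher in the double knockout. In CPM, 2 of the 5 were lower with no overlap between groups, against 30.6% of all tested genes. A handful of members read against such a background gives no result about snoRNAs as a group. Every tested snoRNA had at least 15 counts in each library, so none passed through 1 group alone.

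**Figure D3:**
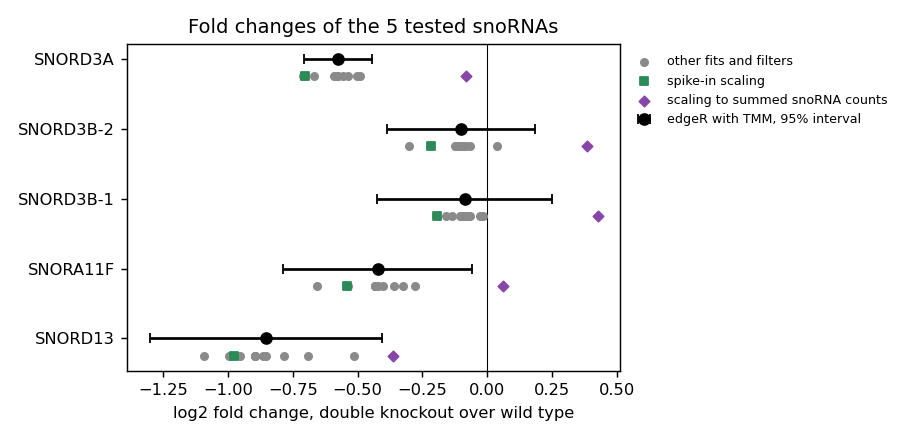
Log2 fold change, double knockout over wild type (horizontal axis), of the 5 tested snoRNAs: black points with 95% intervals are edgeR with TMM scaling, and the smaller marks below them are the alternatives. Intervals use the edgeR SE, which is smaller than the SE from the spread between libraries for SNORD3A, SNORD13, SNORA11F and SNORD3B-2. SNORD3A (-0.58) and SNORD13 (-0.85) stay left of 0 in every fit shown, while scaling to the summed snoRNA counts (diamonds) moves SNORA11F and both SNORD3B genes to the right of 0. That scaling uses the members' own counts, most of them from SNORD3A, so it cannot show whether the members fell.

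Levels per kilobase of annotated gene placed SNORD3A first in both groups. It had 90.9 ± 14.0 CPM per kb in double knockout and 137 ± 16.8 in wild type. SNORA11F followed with 45.4 ± 11.8 CPM per kb in double knockout and 62.0 ± 9.86 in wild type, then SNORD13 with 32.0 ± 7.37 in double knockout and 60.8 ± 26.4 in wild type. SNORA11F and SNORD13 overlapped in both groups, so their order is not resolved. SNORD3B-2 had 13.3 ± 3.13 CPM per kb in double knockout and 14.3 ± 0.368 in wild type, and SNORD3B-1 had 10.0 ± 0.844 in double knockout and 10.5 ± 1.08 in wild type. These last 2 overlapped in double knockout and did not overlap in wild type. The annotated SNORD3 genes are longer than the U3 RNA itself, so a level per length of the gene is not a level per length of the RNA.

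Box C/D was compared with box H/ACA through the summed level of each family. The 4 box C/D members summed to 79.0, 98.1 and 77.7 CPM in double knockout, against 120, 109 and 136 CPM in wild type, with no overlap. Their mean was 85.0 ± 11.4 CPM in double knockout and 122 ± 13.3 CPM in wild type, a log2 difference of -0.52 (two-sided exact permutation p = 0.1). SNORD3A held 77.2% of the box C/D counts, and without it the log2 difference was -0.26 (exact permutation p = 0.1). Both box H/ACA members summed to 5.47, 7.81 and 4.78 CPM in double knockout, against 7.27, 8.11 and 9.42 CPM in wild type, with overlap. Their log2 difference was -0.48 (exact permutation p = 0.2), and SNORA11F held 96.1% of the counts.

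The difference between the families was tested as a ratio within each library. Box C/D over box H/ACA was 14.5, 12.6 and 16.3 in double knockout, against 16.5, 13.4 and 14.4 in wild type. The ranges overlapped, and the log2 difference was -0.04 (two-sided exact permutation p = 0.8), between -0.13 and 0.06 when single libraries were left out. SNORD3A over SNORA11F gave 11.1 ± 1.10 in double knockout and 12.2 ± 1.76 in wild type (exact permutation p = 0.5). SNORD3A over SNORD13 gave 19.8 ± 5.22 in double knockout and 16.5 ± 4.50 in wild type (exact permutation p = 0.4). No difference between the families was detectable with these counts, which does not show that they behave alike.

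**Figure D4:**
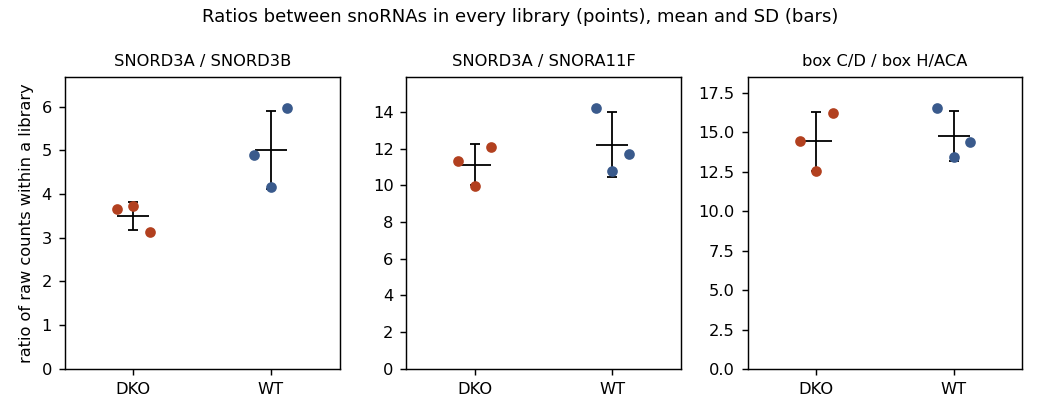
Ratios of raw counts within each library (vertical axes start at 0), for SNORD3A over both SNORD3B genes, SNORD3A over SNORA11F, and box C/D over box H/ACA, with double knockout (DKO) left and wild type (WT) right; points are libraries and bars the mean and SD of 3. The SNORD3A to SNORD3B ratio is 3.13 to 3.72 in double knockout and 4.17 to 5.96 in wild type, and the other 2 ratios overlap.

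Other short or nuclear RNAs are given as values beside the snoRNA levels, not as a calibrated measure of small RNA recovery. The summed snRNA genes had 1858, 2582 and 2117 CPM in double knockout, against 2458, 1940 and 2722 CPM in wild type. Their means were 2186 ± 367 CPM in double knockout and 2374 ± 398 CPM in wild type (exact permutation p = 0.7). SNORD3A and these snRNA genes were both highest in replicate 2 of the double knockout. Both ran in the same order over the wild type replicates, lowest in replicate 2 and highest in replicate 3. SNORD13 had that wild type order but not that double knockout peak, and SNORA11F had the peak but not the order. Neither SNORD3B gene had that order, while SNORD3B-2 had the double knockout peak and SNORD3B-1 did not. MALAT1 and NEAT1, both kept in the nucleus, summed to 1650 ± 52.0 CPM in double knockout and 1696 ± 31.8 CPM in wild type (exact permutation p = 0.3). Of 5 short RNAs that overlap no gene on their strand, picked after their values were seen, 0 rose, 2 fell and 3 did not pass. Over all tested genes 28.3% rose and 28.8% fell. The vault RNA VTRNA1-1 fell by 0.65 on the log2 scale, though its groups overlapped in CPM, and VTRNA1-3 fell by 0.22 without overlap. The Y RNAs RNY1 and RNY4 had -0.05 and 0.17, with wide SEs of 0.35 and 0.41. The signal recognition particle RNA RN7SL3 had 0.06 (SE 0.08). Within their groups RNY1, RNY4 and VTRNA1-1 were highest in double knockout replicate 2 and lowest in wild type replicate 2. VTRNA1-3 and RN7SL3 were highest in replicate 2 of both groups. The part of nuclear leakage or small RNA recovery in the snoRNA values was not tested.

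No member lies within a host gene on its strand, so a ratio of member to host could not be computed. The hosts of the snoRNAs listed at 0 could still be described from their own counts. Of 327 hosts, 251 were tested, of which 43 rose, 119 fell and 89 did not pass, with a median log2 fold change of -0.10. Over all tested genes 28.3% rose and 28.8% fell, with a median of 0.003. The tested hosts were more abundant, at a median of 96.0 CPM against 35.6 CPM over all tested genes, and the part of this in the share called was not tested. Hosts of box C/D snoRNAs had 15 higher and 42 lower of 77 tested (median -0.11). Hosts of box H/ACA snoRNAs had 12 higher and 53 lower of 97 tested (median -0.13). Hosts of SCARNA genes had 1 higher and 7 lower of 19 tested (median -0.07).

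Hosts with many snoRNAs moved in both directions. SNHG1, a noncoding host of 7 box C/D snoRNAs, fell by 0.17, and TAF1D, a subunit of the RNA polymerase I factor SL1, fell by 0.13 on the log2 scale. GNL3, the nucleolar protein nucleostemin, averaged 109 ± 5.18 CPM in double knockout and 162 ± 9.39 CPM in wild type, and fell by 0.57. The ribosomal protein genes RPL13A and RPS12 fell by 0.41 and 0.72. In the other direction RPL7A had a log2 fold change of 0.37, SNHG7 of 0.40 and the translation factor gene EIF4A2 of 0.31, all past the threshold. Whether the snoRNAs inside these hosts moved with them was not measured.

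The proteins that carry, assemble and trim snoRNAs were taken from a list of 34 genes, of which 33 were tested. Of these, 4 rose, 18 fell and 11 did not pass, with a median log2 fold change of -0.16, against 28.3% higher, 28.8% lower and a median of 0.003 over all tested genes. Spike-in scaling lowered the median of all tested genes to -0.10 and left 2133 genes higher in place of 4020. Under it 0 of the list rose. That scaling rests on few counts per library, 285 to 384 for GFP and 31 to 64 for FLuc. In CPM neither spike-in differed detectably between the groups (two-sided exact permutation p = 0.2 for GFP and 0.9 for FLuc). Whether the shift exceeds the counting error of the spike-ins was not tested. TARDBP, the remaining gene of the list, had a total of 2 counts and overlaps another gene on its strand.

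Among the box C/D core proteins, the methyltransferase FBL averaged 251 ± 16.2 CPM in double knockout and 327 ± 8.89 CPM in wild type, and fell by 0.38 on the log2 scale (edgeR adjusted p = 5.94e-27). Its partners NOP56 and NOP58 fell by 0.17 and 0.30. SNU13, which binds the folded C and D boxes, had -0.08 and did not pass (adjusted p = 0.0667). Among the box H/ACA core proteins, NHP2 fell by 0.43 and GAR1 by 0.61, the pseudouridine synthase DKC1 was higher by 0.12, and NOP10 did not pass at 0.05. DKC1 averaged 401 ± 6.22 CPM in double knockout and 370 ± 9.93 CPM in wild type (adjusted p = 8.24e-04). GAR1 averaged 47.1 ± 1.97 CPM in double knockout and 71.9 ± 1.41 CPM in wild type (adjusted p = 5.08e-20). Tested genes within 1 Mb had median log2 fold changes of -0.24 around FBL, 0.23 around NOP56, -0.16 around NOP58 and -0.04 around SNU13. These medians were 0.25 around DKC1, -0.24 around NHP2, -0.16 around NOP10 and -0.44 around GAR1. The part of chromosome position in the changes of the core proteins was not tested.

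Among assembly and processing factors, those named here were the ones that rose or that fell by at least 0.5, a choice made after the values were seen. SHQ1, a chaperone of dyskerin, had 21.2, 21.6 and 19.8 CPM in double knockout, against 62.6, 56.9 and 64.1 CPM in wild type, and fell by 1.55 on the log2 scale (edgeR adjusted p = 1.44e-76). RUVBL1, an ATPase of the R2TP assembly complex, fell by 0.65, NAF1, which holds the place of GAR1 during assembly, fell by 0.65, and DBR1, which opens intron lariats, fell by 0.60. ZNHIT3, a box C/D assembly factor, was higher by 0.32, the nuclear exosome nuclease EXOSC10 by 0.24 and PARN, which trims H/ACA 3′ ends, by 0.16. Genes beside the largest falls were lower as well: the median log2 fold change of tested genes within 1 Mb was -1.31 around SHQ1, -0.85 around DBR1, -0.54 around NAF1, -0.44 around GAR1 and -0.37 around RUVBL1. SHQ1, DBR1 and RUVBL1 lie on chromosome 3, whose tested genes had a median of -0.45, and NAF1 and GAR1 on chromosome 4, with a median of -0.29. The part of chromosome position in these falls was not tested.

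**Figure D5:**
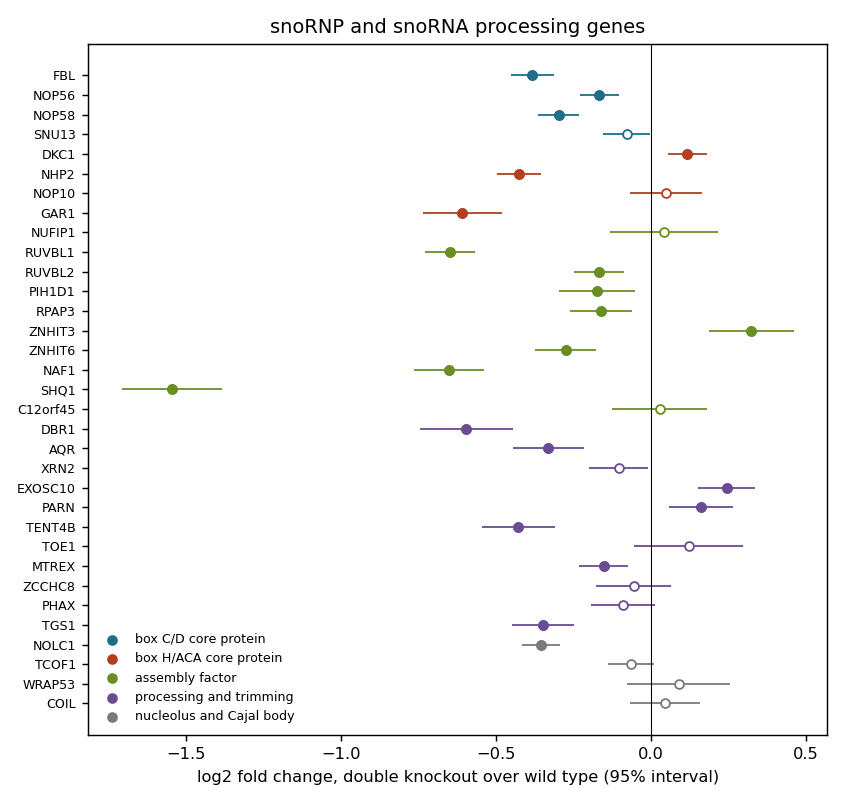
Log2 fold change, double knockout over wild type (horizontal axis, with 95% intervals), of the 33 tested genes for snoRNP proteins, assembly, processing and nucleolar factors, coloured by role; filled points passed the edgeR threshold and open points did not. SHQ1 lies far left of all others at -1.55, and the 4 that rose are DKC1, ZNHIT3, EXOSC10 and PARN.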

How the data were processed

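RNA was sequenced from 6 libraries, 3 double knockout and 3 wild type. The authors deposited unnormalised counts of reads for each gene. Per the submitters' processing notes, reads were handled with cutadapt 2.10, STAR 2.7.6a and featureCounts on hg38. Strand use and the treatment of reads in several genes or places are not given in the sources used here. All 58721 gene identifiers matched GENCODE 29. The 4 spike-in entries (0.0110% of counts) stayed out of library sizes and tests.

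The whole table was fitted in edgeR 4.0.16 (R 4.3.3) with filterByExpr (minimum count 10, minimum total 15), TMM and a robust quasi-likelihood model of genotype, tested two-sided with Benjamini-Hochberg adjustment over 14180 genes and a threshold of 0.05; only snoRNAs, hosts and related genes are printed. Sums and ratios went through exact permutation tests, also two-sided. CPM values use TMM-scaled library sizes. A gene's family came from its SNORD, SNORA or SCARNA symbol in GENCODE or the name table, and its host was the same-strand gene spanning it. The edgeR fit was checked on simulated counts.

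Members, lists and named genes (members, hosts with many snoRNAs, core snoRNP proteins, and other factors by size after their values were seen) were chosen with earlier results of these data known. Alternatives were other scalings, filters, DESeq2 1.42.0, limma 3.58.1 voom, a replicate block and leaving out each library.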

Additional observations from a re-analysis of the deposited data

Results flagged for a closer look

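The count table holds an entry for Rluc, a spike-in RNA that the labels do not name, with 2005 counts summed over the 6 libraries. It averaged 52.7 ± 4.59 CPM in double knockout and 50.01 ± 1.60 CPM in wild type (SD, n = 3 each, two-sided exact permutation p = 0.4). The spike-in scaling used GFP and FLuc without Rluc.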

How the results depend on the processing

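The fall of SNORD3A was past the threshold in 12 of 14 alternatives, that of SNORD13 in 11 of 13 and that of SNORA11F in 6 of 14. Among these alternatives was scaling to the members' own summed counts, under which none of them passed. Leaving out single libraries gave 1 to 3 snoRNAs lower, 1 to 2 box C/D and 0 to 1 box H/ACA, and log2 family medians of -0.51 to -0.30 for box C/D and -0.66 to -0.28 for box H/ACA. The group difference of the log2 family ratio ran between -0.13 and 0.06 over these fits. It turned positive without double knockout replicate 2 (0.058) or wild type replicate 1 (0.046). Without the top member of each family it was 0.32, with box H/ACA then resting on RF00406 and its total of 11 counts. SNORD3B-2 had 0.037 without double knockout replicate 1.

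Scaling to the summed snoRNA counts holds the sum of the members fixed, and SNORD3A makes up 72.2% of that sum. It therefore cannot show whether the members fell. It left 0 snoRNAs lower (0 box C/D, 0 box H/ACA) and gave family medians of 0.15 for box C/D and 0.060 for box H/ACA. Of the hosts 0 were lower and 150 higher, and of the snoRNP genes 1 was lower and 18 higher. This scaling shifted the median of all tested genes to 0.52, and spike-in scaling shifted it to -0.10. Log2 fold changes under scaling to the summed snoRNA counts were 0.39 for SNORD3B-2, 0.43 for SNORD3B-1, 0.060 for SNORA11F, 0.13 for FBL, 0.35 for NOP56, 0.22 for NOP58, 0.44 for SNU13, 0.088 for NHP2 and 0.12 for ALKBH5. Spike-in scaling gave 15 hosts and 0 snoRNP genes higher, and -0.059 for NOP10. No filter, DESeq2 and voom each gave 0 box H/ACA lower, since SNORA11F missed the threshold; the cause was not tested for these or for spike-in scaling. A mean CPM of at least 5 removed SNORD13, which left 1 box C/D lower and a median of -0.083. Leaving out SNORD13, which overlaps an exon of another gene, left 1 box C/D lower and a median of -0.10.

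Replicate numbers did not pair the libraries (correlations of residuals 0.0107, 0.0166 and 0.00848). With a replicate block 3 snoRNAs were lower and 0 higher, and SNORD3A had an adjusted p of 0.0394. No value could be had for the ratios of members to hosts. The low counts limit SNORD13, SNORA11F and RF00406 most.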
